A study of Danio rerio with 30 samples.

Results

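The microRNA miR-126 was followed in the zebrafish spleen through all 4 rows of the deposited count table whose names begin with dre-miR-126a or dre-miR-126b, out of 8866 rows in all. These rows (dre-miR-126a-3p, dre-miR-126a-5p, dre-miR-126b-3p and dre-miR-126b-5p) are the 3p and the 5p arm of each of 2 paralogues, miR-126a and miR-126b, and all 4 passed the filter on low counts, as did 364 rows of the table. The 30 small RNA libraries came from spleens of adult AB zebrafish, a laboratory strain, at 100 days of age. They fall into 6 groups of 5, made of fish from incubation at 24, 28 or 32 °C that were either controls or had received lipopolysaccharide (LPS), a component of the bacterial outer membrane that starts an innate immune response. Per the labels' protocols, the LPS came from Pseudomonas aeruginosa, was given into the body cavity as 2 µl at 50 mg/ml, and preceded sampling by 12 h. Eggs and larvae were kept at the 3 temperatures and adults at 28 °C, and the labels do not say whether controls were injected. The labels leave it unsaid whether each replicate was its own fish, and the spread between samples that the p-values rest on may therefore be technical.

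A miRNA precursor folds into a hairpin whose 2 strands, the 5p and 3p arms, have different sequences and therefore different seeds, the stretch that pairs with target messenger RNAs. miR-126 is the best known miRNA of endothelial cells, which line blood vessels, and it is processed from an intron of the gene egfl7, which encodes a secreted vascular protein. Its 3p arm represses Spred1 and Pik3r2, which restrain signalling from vascular growth factors, and loss of miR-126 in zebrafish embryos leaves vessels that bleed. In human endothelial cells the 3p arm also represses VCAM1, an adhesion molecule for leukocytes. In mouse endothelium the 5p arm represses Dlk1, an inhibitor of endothelial proliferation. In the RefSeq annotation of assembly GRCz12tu, the gene mir126b lies within the span of egfl7, with agpat2 and ap3b1a as the nearest other coding genes. The gene mir126a lies within a long non-coding RNA between pierce1 and fnbp1a.

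The 3p arm of miR-126b was far more abundant than the other rows. Over all libraries dre-miR-126b-3p held 321314 counts, which is 88.3% of the counts of the 4 rows. dre-miR-126a-3p held 39248 counts, or 10.8%. The 5p rows were scarce, with 1610 counts of dre-miR-126b-5p (0.443%) and 1594 of dre-miR-126a-5p (0.438%). These pooled totals lean on 2 libraries, replicate 7 of the 32 °C controls and replicate 5 of the 32 °C LPS fish, which together held 72.6% of the miR-126b-3p counts and 76.2% of the miR-126a-3p counts. The same libraries held 64.9% of the miR-126a-5p counts and 61.6% of the miR-126b-5p counts. In single libraries miR-126b-3p took from 0.0247 to 1.75% of all counts, with a median of 0.279%.

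Library totals ran from 199431 to 7584818 counts, and the medians of the 24, 28 and 32 °C libraries were 352754, 697494 and 1066364, so depth moved with temperature. Leukocyte families (miR-142, miR-150, miR-223 and miR-155) had counts in every group, 4 of 4, and took 0.534 to 3.08% of counts. Of the 3 red cell and thrombocyte families, miR-144 and miR-451 had counts in every group, while all rows of miR-486 were at 0.

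miR-126b-3p rose with incubation at 32 °C relative to 24 °C. Levels are given as CPM, counts scaled to a common library total, with TMM factors that correct for composition. At 24 °C the 5 control libraries had 2339, 279, 2168, 973 and 239.7 CPM, and the 5 LPS libraries had 1709, 1129, 2187, 2768 and 1596 CPM. At 28 °C the controls had 3098, 1714, 4042, 2463 and 3464 CPM, and the LPS fish 3966, 464, 1192, 3709.5 and 3930.1 CPM. At 32 °C the controls had 3033, 3045, 26451, 8047 and 9619 CPM, and the LPS fish 2046, 2138, 2097, 31500.4 and 6039 CPM. Every 32 °C control lay above every 24 °C control, whereas the LPS groups of 24 and 32 °C overlapped. In each 32 °C group 1 library stood far above the other 4. These were replicate 7 of the controls and replicate 5 of the LPS fish. They were also the deepest of all libraries, with 7584818 and 5977392 counts. Their TMM factors, 0.664 and 0.535, were among the lowest, and a low factor raises CPM. Leaving out the highest libraries and leaving out the 4 deepest are therefore not separate checks.

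**Figure D1:**
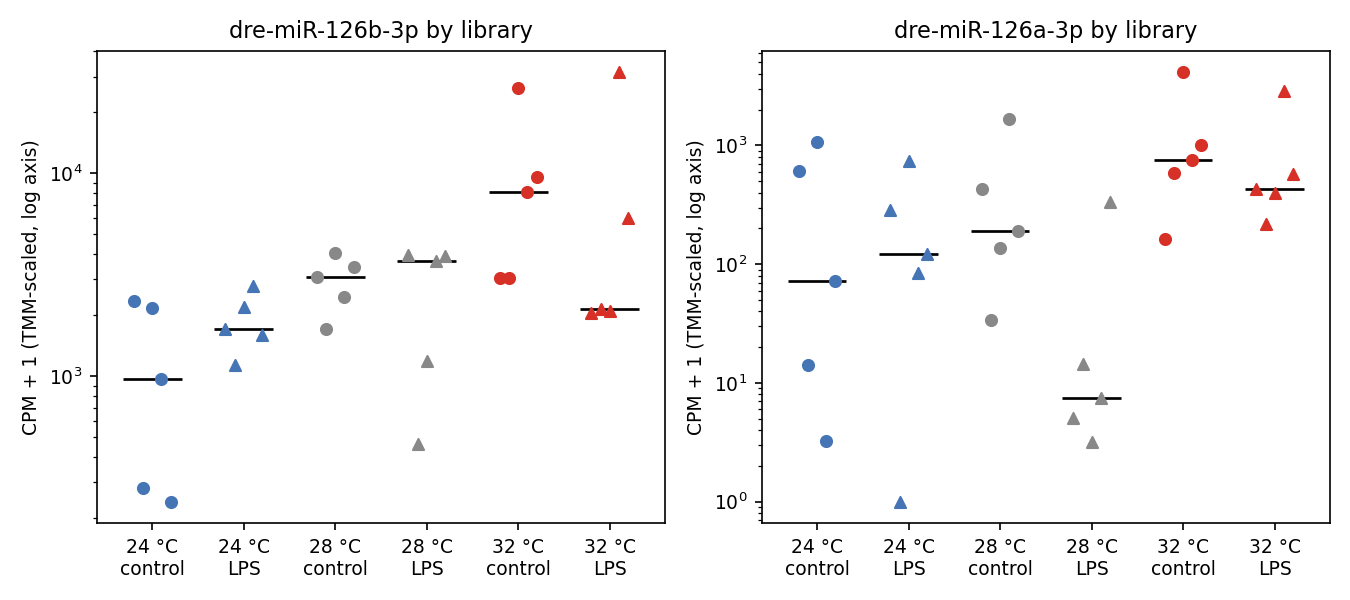
CPM of miR-126b-3p and miR-126a-3p on a log axis in each of the 30 libraries, by incubation temperature and treatment, with the group medians as lines. All 10 libraries at 32 °C lie above the 24 °C median of 1653 CPM for miR-126b-3p, and the highest library of each 32 °C group is at 26451 and 31500.4 CPM.

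Averaged over treatments, libraries from 24, 28 and 32 °C had 1539 ± 867, 2804 ± 1285 and 9402 ± 10716 CPM of miR-126b-3p (SD, 10 libraries each). The medians were 1653, 3281 and 4542 CPM. At 32 °C 10 of 10 libraries exceeded the 24 °C median and 7 exceeded the 24 °C maximum. At 28 °C these counts were 8 and 6. Relative to 24 °C, the 32 °C libraries were higher by 2.64 ± 0.55 on the log2 scale (SE; 95% interval 1.51 to 3.78), with an adjusted p of 0.00123 in edgeR's quasi-likelihood test with Benjamini-Hochberg adjustment over 364 rows. In this contrast 16.5% of the tested rows were called, 14% higher and 2.47% lower, and of the 4 miR-126 rows this was the 1 called.

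The median tested row was itself 0.81 higher at 32 °C on the log2 scale, and miR-126b-3p stood 1.84 above that median. Other scalings moved the median row to 0.40 (RLE) and 0.18 (total counts), and miR-126b-3p then stood 1.73 above it in either case. The difference itself fell to 2.13 (adjusted p = 0.00649) with RLE and 1.91 (adjusted p = 0.00907) with total counts. As shares of all counts, the group medians at 24 and 32 °C were 0.123 and 0.560% in controls. In LPS fish they were 0.206 and 0.229%. The call was lost in a pair of the alternatives. With log2 library total as a covariate the difference was 1.44 (adjusted p = 0.164), and without the 4 deepest libraries it was 1.32 (adjusted p = 0.0897). Without the highest library of each 32 °C group the mean at 32 °C was 4508 ± 2995 CPM (SD, n = 8), the median 3039 CPM and the log2 difference 1.50 (adjusted p = 0.0294). Thinned to 199431 counts per library, the median counts of miR-126b-3p were 383.5, 663.5 and 890.5 at 24, 28 and 32 °C, and the log2 difference between 32 and 24 °C was 1.68 (adjusted p = 0.0140). In whole spleens, a change in the share of a cell type and a change in its RNA per cell cannot be told apart.

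**Figure D2:**
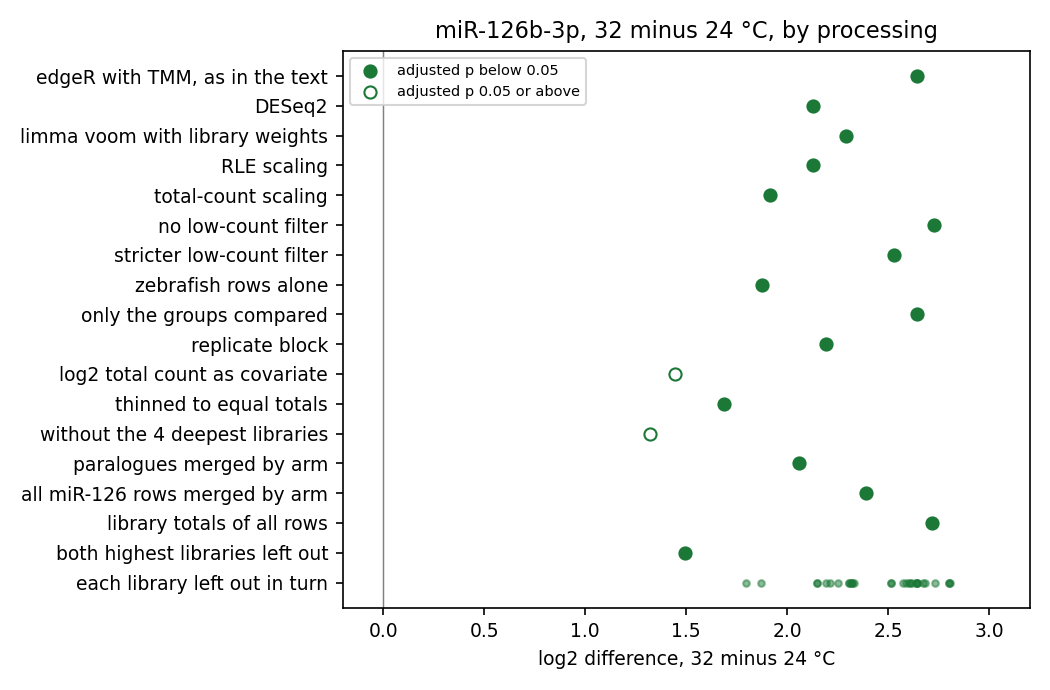
The log2 difference of miR-126b-3p between 32 and 24 °C under each way of processing, with the value after leaving out each library in turn in the lowest line. The lines for merged rows show the summed 3p arm. The values run from 1.32 without the 4 deepest libraries to 2.80 among the left-out libraries, and all lie above 0.

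Within controls alone the difference between 32 and 24 °C was 3.06 ± 0.79 (SE), with an adjusted p of 0.0493 beside 0.824% of rows called. It is a borderline call, since the adjusted p rose above 0.05 in 15 of 30 fits that each left out 1 library, and the difference was 2.21 (adjusted p = 0.196) without replicate 7 of the 32 °C controls. Within LPS fish it was 2.22 ± 0.76 (adjusted p = 0.116), where 0.549% of rows were called, and 0.75 (adjusted p = 0.782) without replicate 5 of the 32 °C LPS fish. The test of an interaction between LPS and temperature gave an adjusted p of 1.00 for miR-126b-3p and called 0 of 364 rows (44 at an unadjusted p below 0.05).

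The step from 28 to 32 °C was 1.74 ± 0.53 for miR-126b-3p and fell just short of the threshold (adjusted p = 0.0578), with 2.75% of rows called. It passed with voom (1.51, adjusted p = 0.0374) and in 7 of 30 fits that each left out 1 library. It was 0.62 (adjusted p = 0.571) without replicate 5 of the 32 °C LPS fish, 0.69 (adjusted p = 0.540) without replicate 7 of the 32 °C controls, 0.75 (adjusted p = 0.596) with library total as a covariate and 0.46 (adjusted p = 0.713) without the 4 deepest libraries. The step from 24 to 28 °C was 0.90 ± 0.52 (adjusted p = 0.438), a contrast in which 0% of rows were called. It stayed uncalled in all 46 alternatives. When each library was left out in turn it ran from 0.78 to 1.75, and the step from 28 to 32 °C from 0.62 to 1.78. Without replicate 5 of the 24 °C controls the lower step was 1.75 and the upper step 1.06. Which step was larger therefore depended on single libraries. In the joint test over the 3 temperatures the adjusted p was 0.00144, where 18.4% of rows were called. By group medians the order from low to high was 24 °C control (973 CPM), 24 °C LPS (1709), 32 °C LPS (2138), 28 °C control (3098), 28 °C LPS (3709.5) and 32 °C control (8047). Each group overlapped in range with the next in that order.

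No difference between LPS and control libraries was called for miR-126b-3p at any temperature. The edgeR log2 difference was 0.65 ± 0.73 (adjusted p = 1.00) in fish from 24 °C, with 0% of rows called. It was -0.16 ± 0.73 (adjusted p = 0.975) in fish from 28 °C and -0.20 ± 0.73 (adjusted p = 0.999) in fish from 32 °C, and 0% of rows were called there too. Averaged over the temperatures it was 0.10 ± 0.42 (95% interval -0.77 to 0.97), beside 0.549% of rows called. Across the 4 miR-126 rows edgeR, DESeq2 and limma voom each called 0 LPS differences. At an unadjusted p below 0.05 edgeR had 0 rows in any LPS contrast. DESeq2 had 1 row at 28 °C, and voom had 1 row at 28 °C, 1 at 32 °C and 1 in the average.

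miR-126a-3p was lower than miR-126b-3p in all 30 libraries and varied far more between replicates. The 24 °C controls had 612, 13.2, 1059, 2.22 and 71.4 CPM, and the 24 °C LPS libraries had 283, 0, 734, 82.9 and 121 CPM. The 28 °C controls had 425, 32.6, 136, 1665 and 188 CPM, and the 28 °C LPS libraries had 4.08, 13.5, 2.20, 6.47 and 336 CPM. The 32 °C controls had 161, 587, 4138, 756 and 1002 CPM, and the 32 °C LPS libraries had 432, 219, 396, 2859 and 577 CPM. At 24 and 28 °C the row ran from near 0 to as high as 1665 CPM, while at 32 °C no library was below 161 CPM.

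By temperature miR-126a-3p averaged 298 ± 373, 281 ± 509 and 1113 ± 1316 CPM (SD, n = 10 each). At 32 °C 10 of 10 libraries exceeded the 24 °C median, yet only 2 exceeded the 24 °C maximum. The log2 difference between 32 and 24 °C was 1.90 ± 1.02 (95% interval -0.20 to 4.00, adjusted p = 0.191). It was 1.02 without replicate 7 of the 32 °C controls, 1.23 without replicate 5 of the 32 °C LPS fish and 0.75 (adjusted p = 0.766) without both. Between 32 and 28 °C the difference was 2.53 ± 1.04 (adjusted p = 0.113). It ran from 1.63 without replicate 7 of the 32 °C controls to 3.79 (adjusted p = 0.0241) without replicate 8 of the 28 °C LPS fish, and was 1.42 (adjusted p = 0.668) without both highest 32 °C libraries. With library weights in limma voom the differences from 24 and 28 °C were 3.28 (adjusted p = 0.0118) and 4.08 (adjusted p = 0.00636), so the calls for this row depend on the test. The value for LPS against control at 28 °C was -2.74 ± 1.48 (adjusted p = 0.446), and the average over temperatures was -1.28 ± 0.82 (adjusted p = 0.724). Single libraries moved both values. The first was -5.97 without replicate 8 of the 28 °C LPS fish. Leaving out replicate 5 of the 28 °C controls took it to -1.59. The second was -2.36 without the former library, -0.78 without the latter and -0.62 without replicate 5 of the 24 °C controls.

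**Figure D3:**
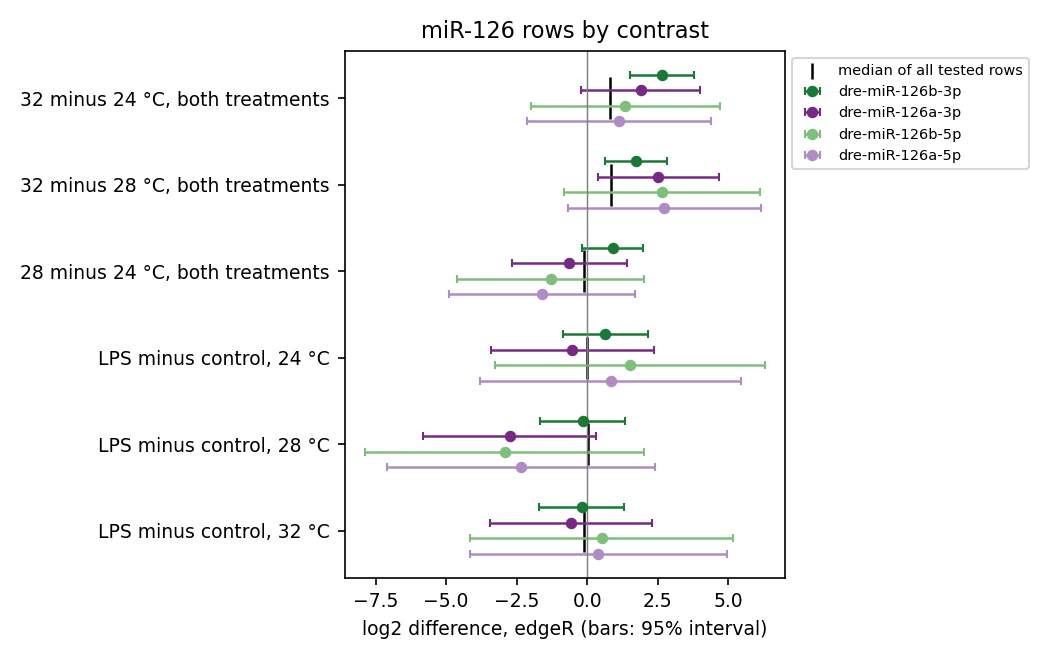
Log2 differences of the 4 miR-126 rows in 6 contrasts from the edgeR fit, with 95% intervals as bars and the median of the 364 tested rows as a vertical tick. In the top contrast, 32 minus 24 °C, the interval of miR-126b-3p runs from 1.51 to 3.78, and the intervals of the other rows include 0.

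The share of miR-126a among the counts of both 3p rows ran from 0 to 40.3% between libraries, with a median of 8.45%. The exact 95% interval (Clopper-Pearson, counting error only) excluded an equal split in 30 of 30 libraries. In the 28 °C LPS fish the shares were 0.103, 2.84, 0.184, 0.174 and 7.88%, so 3 libraries held almost no miR-126a-3p beside ample miR-126b-3p. At 32 °C the shares ran from 5.05 to 17.4% over both groups, a narrower range than at the other temperatures. For the libraries of 24, 28 and 32 °C the log2 ratios of a over b averaged -4.00 ± 2.99, -5.38 ± 2.88 and -3.07 ± 0.63 (SD, 10 libraries each).

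The ratio of miR-126a-3p to miR-126b-3p did not pass the test in any contrast, and it was 2.70 (adjusted p = 0.0496) for 32 minus 28 °C without replicate 5 of the 28 °C controls. With all libraries that difference was 2.31 on the log2 scale, with a two-sided exact permutation p of 0.0204 and an adjusted p of 0.623 over 35 ratio tests. LPS against control at 28 °C gave -3.49 (exact permutation p = 0.0635, adjusted p = 0.623), where the smallest p that 5 against 5 libraries allow is 0.00794. Of the 35 ratio tests 0 passed, and 1, the 3p ratio for 32 minus 28 °C, had an unadjusted p below 0.05. Near-identical paralogue rows can divide reads according to how they were counted, so this ratio is uncertain.

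**Figure D4:**
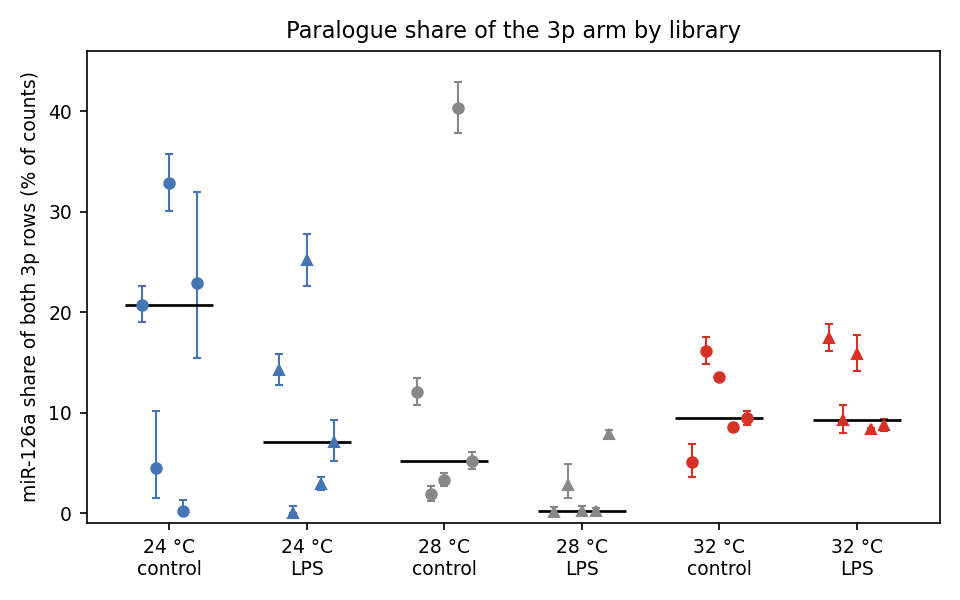
Share of miR-126a among the counts of both 3p rows in each of the 30 libraries, in percent, with exact 95% intervals as bars and group medians as lines. The shares run from 0 to 40.3%, and those of the 10 libraries at 32 °C lie between 5.05 and 17.4%.

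The 5p arms were counted in only part of the libraries, and both rows in the same ones. miR-126a-5p and miR-126b-5p each had more than 3 counts in 11 libraries, and these were the same 11. In the other 19 the highest count was 3, and 14 of them had 0 counts of both rows. The lowest count of either row in the 11 libraries was 18, so no library fell in between. By group the 11 libraries were 1 of the 24 °C controls, 2 of the 24 °C LPS fish, 1 of the 28 °C controls, 1 of the 28 °C LPS fish, 3 of the 32 °C controls and 3 of the 32 °C LPS fish.

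Counts of miR-126a-5p and miR-126b-5p were close to each other within each of these libraries. At 24 °C the pairs were 26 and 18 in control replicate 5, 58 and 64 in LPS replicate 1, and 82 and 92 in LPS replicate 6. At 28 °C they were 55 and 72 in control replicate 7, and 47 and 45 in LPS replicate 8. At 32 °C they were 551 and 539, 156 and 174, and 23 and 19 in control replicates 7, 8 and 9. In LPS replicates 2, 5 and 7 of that temperature they were 29 and 47, 483 and 452, and 80 and 84. The share of miR-126a among both 5p rows ran from 38.2 to 59.1%, and the exact 95% interval held 50% in 11 of 11 libraries. How reads were divided between the paralogue rows is not known, for the 5p as for the 3p arm, and its part in the near-equal counts was not tested.

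The 5p arm was a small fraction of miR-126 wherever it was counted. Among the 11 libraries its share of the counts of all 4 rows ran from 0.554% in replicate 8 of the 28 °C LPS fish to 5.70% in replicate 1 of the 24 °C LPS fish, with a median of 1.91%. Pooled over all libraries it was 0.881%. Libraries with similar counts of 3p differed in whether the 5p arm was counted. Replicate 6 of the 32 °C controls had 0 counts of 5p beside 3049 counts of 3p, an exact 95% upper limit of 0.121%, and replicate 1 of the 28 °C controls had 0 of 2345 (up to 0.157%). Replicate 7 of the 28 °C controls, with 2869 counts of miR-126, had 4.43% (exact 95% interval 3.70 to 5.24%).

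**Figure D5:**
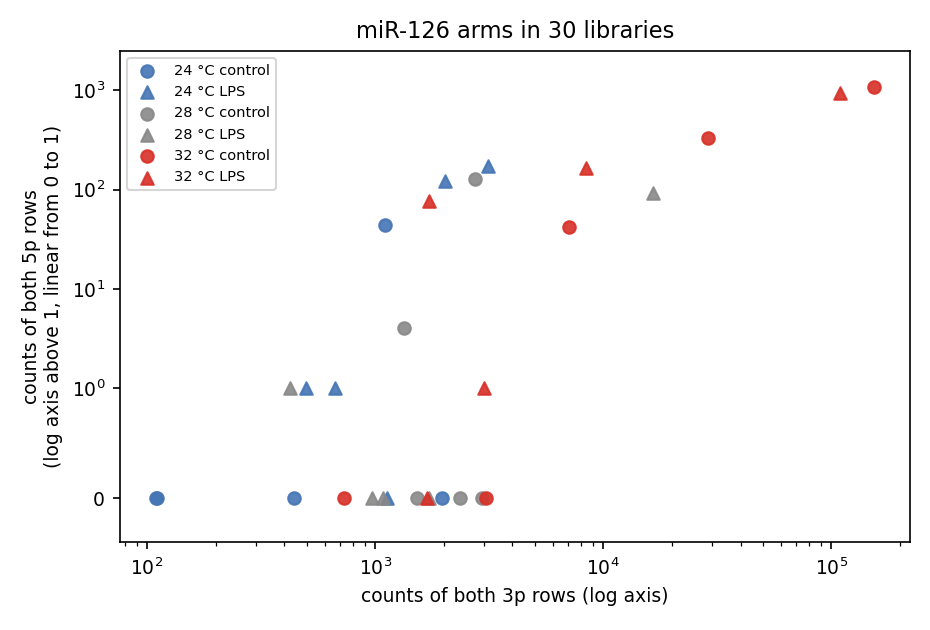
Counts of the 5p arm against counts of the 3p arm of miR-126, summed over the paralogues, in each library. The 11 libraries with more than 3 counts of each 5p row hold 1103 to 153565 counts of 3p, and the other 19, of which 5 have a few 5p counts and 14 have 0, hold 109 to 3049, so the 2 sets overlap.

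No temperature or LPS difference of either 5p row or of the arm ratio passed its test. For 32 minus 24 °C the edgeR log2 difference was 1.13 ± 1.59 for miR-126a-5p (adjusted p = 0.665) and 1.35 ± 1.62 for miR-126b-5p (adjusted p = 0.596). These values moved with single libraries. Without replicate 5 of the 24 °C controls they were 4.68 (adjusted p = 0.0551) and 4.65 (adjusted p = 0.0651). The other libraries of that group had 0 counts of both rows, so the latter values are fits against an absent level. Without replicate 7 of the 32 °C controls they were 0.39 and 0.66. Leaving out replicate 5 of the 32 °C LPS fish took miR-126a-5p to 0.58. For LPS against control averaged over temperatures the values were -0.37 ± 1.25 (adjusted p = 0.957) and -0.30 ± 1.26 (adjusted p = 0.973). The summed ratio of 3p to 5p differed by 0.53 between 32 and 24 °C on the log2 scale (two-sided exact permutation p = 0.673) and by -0.62 between LPS and control (p = 0.544, exact permutation). In the 14 libraries with 0 counts of both 5p rows, this ratio is set by the 3p count and the 0.5 added to each count. The test therefore mixes arm use with 5p detection and depth and cannot separate them.

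The rows of a pair did not track each other equally. Across the 30 libraries the Pearson r of log2(CPM + 1) was 0.978 between the 5p rows and 0.591 between the 3p rows. It was 0.976 and 0.492 after subtracting group means. These are descriptions over libraries that share depth and composition, and the division of reads between paralogue rows is unknown here too.

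Of 185 tested rows with a mean of at least 100 CPM, those most like the summed miR-126 rows across the 30 libraries were miR-143 (r = 0.865), miR-16b (0.820), miR-22a-3p (0.814), miR-26a-5p (0.813) and miR-146a (0.770). The median row had an r of 0.213. The level of miR-126b-3p also went with library total, with a Pearson r of 0.602 (permutation p = 0.00054, adjusted p = 0.00216 over 4 sets) and a Spearman rho of 0.364 (p = 0.0490, adjusted p = 0.196). Without the 2 libraries farthest from the median total, r was 0.350. These are replicate 7 of the 32 °C controls and replicate 5 of the 32 °C LPS fish, also the highest for miR-126b-3p. Within the 24, 28 and 32 °C libraries r was 0.351, -0.119 and 0.711 in turn, and the last became 0.304 without its 2 farthest libraries, so the relation rests on those.

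Among the other vascular and stromal families (miR-143, miR-145, miR-199 and miR-214), 11 of 18 tested rows had a higher level after 32 than after 24 °C and 7 a lower one. Of the 18, 3 were called higher and 0 lower, 16.7% beside 16.5% of all rows. The median difference was 0.60, against 0.81 over all rows. The families differed, with a median of 2.87 over 8 rows of miR-143 and miR-145 and of -0.68 over 10 rows of miR-199 and miR-214, stromal miRNAs of which 0 were called and 5 had lower values. The share of counts of miR-199 and miR-214 had medians of 0.551% (control) and 0.996% (LPS) after 24 °C and of 0.243% and 0.181% after 32 °C. miR-143, abundant in smooth muscle, had 6724 ± 3766 CPM at 24 °C and 49000.4 ± 66348 CPM at 32 °C (SD, n = 10 each), a log2 difference of 2.86 ± 0.47 (edgeR adjusted p = 0.000159). miR-145-3p, from the cluster that holds miR-143, differed by 3.15 ± 0.96 (adjusted p = 0.0194), and gmo-miR-143-5p, by 5.56 ± 1.92 (adjusted p = 0.0421). The latter row, which carries another species' name, was counted in 1, 5 and 7 of 10 libraries at 24, 28 and 32 °C. Its value is thus a fit against a near-absent level. Among 50 rows of families known for endothelial and angiogenic roles, 42 had a higher level and 7 were called higher, with a median of 1.41. That is 14% called higher, the same share as the 14% of all rows, of which 229 of 364 had a higher level. miR-27b-5p, whose family promotes vessel sprouting, differed by 8.77 ± 2.13 (adjusted p = 0.00625) and was counted in 1, 5 and 8 of 10 libraries at 24, 28 and 32 °C. miR-221-5p and miR-30b, also from that list, differed by 8.23 ± 2.12 (adjusted p = 0.0102) and 7.48 ± 1.99 (adjusted p = 0.0112) and had counts in 1 and 2 of 10 libraries at 24 °C, so these fitted values rest on near-absent levels there.

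Smooth muscle and red cell miRNAs were also high in the 2 libraries highest for miR-126b-3p. The smooth muscle families miR-143 and miR-145 took 15.1% of counts in replicate 7 of the 32 °C controls and 6.27% in replicate 5 of the 32 °C LPS fish, and 0.854 to 4.41% in the other 32 °C libraries. Red cell and thrombocyte families took 5.19 and 2.01% there, against 0.136 to 1.32% in the others. Leukocyte families took 1.29 and 1.46%, within their range elsewhere. Their medians were 2.15% (control) and 2.17% (LPS) after 24 °C, and 1.29% and 1.39% after 32 °C. Liver miR-122 took 0.197 to 2.86% of counts in the 32 °C controls (median 0.954%), against 0.0126 to 0.307% (median 0.177%) in the 24 °C controls. In the LPS fish it took 0.0283 to 3.86% after 32 °C (median 0.0847%) and 0.0501 to 0.219% after 24 °C (median 0.0639%). Families of epithelium and gut reached 1.37% in the 32 °C controls and 0.250% in the 24 °C controls, with medians of 0.0882 and 0.0596%. In the LPS fish their medians were 0.0277% after 32 °C and 0.0549% after 24 °C. Pancreas families had medians of 0.256 and 0.0755% in the 32 and 24 °C controls, and of 0.0564 and 0.186% in the LPS fish. For striated muscle families these medians were 0.00837 and 0.0103%, and 0.0357 and 0.000208%. The part of these other cell types in the miR-126 result was not tested.

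Rows named after other species held a small part of the pooled counts. Of 28 rows named miR-126, 24 carry another species' name, 4 of those had counts and 2 were tested. They held 3.92% of all miR-126 counts pooled over libraries, so the 4 zebrafish rows held 96.1%. The row ccr-miR-126-3p had 9468 counts and gmo-miR-126-3p 5345, each more than either 5p row (1610 and 1594). In replicate 1 of the 24 °C controls all miR-126 rows took 0.377% of counts and the 4 zebrafish rows 0.327%. The merged 3p difference for 32 minus 24 °C was 2.06 without and 2.39 with the other species' rows. The median row of these fits moved as well, from 0.40 to 0.74. The merged 3p arm stood 1.66 and 1.65 above it.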

How the data were processed

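The values are read counts per miRNA row and library, whole numbers in 1 table that the authors deposited. Per the labels' protocols, 50 ng of RNA went into each library and 22 PCR cycles followed. Tools named in the submitters' processing notes are DESeq2 1.11.1, cutadapt 1.12, FastQC 0.11.5 and bcl2fastq. Aligner, counting tool and build: not given in the sources used here. No removal of PCR copies is recorded, so intervals and limits cover counting error only.

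Rows were kept by filterByExpr in edgeR 4.0.16 (R 4.3.3), which left 364 of 8866, scaled with TMM and fitted with a mean per group by the robust quasi-likelihood method (24 residual degrees of freedom). P-values were adjusted over all 364 rows at a threshold of 0.05. Ratios were log2 of counts plus 0.5, tested by exact permutation within treatment or temperature, 35 tests adjusted together. The exact intervals of shares came from scipy 1.17.1. Level against library total used 100000 resamples. DESeq2 1.42.0, limma 3.58.1 and the alternatives of the closing section were run on the same counts. The steps were tested on simulated data.

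All 4 miR-126 rows are named, with the 5 rows most like their sum and, from 2 lists of families, rows among the 3 with the smallest p for 32 minus 24 °C. The members and lists were chosen with earlier results of these data known. Of 8 control and LPS pairs sharing a replicate number, correlations of deviations from group means ran from -0.0784 to 0.323, so the numbers were not used as pairs. Of 60 library pairs checked, none agreed within sampling noise.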

Additional observations from a re-analysis of the deposited data

Results flagged for a closer look

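By Dixon's ratio of gap to range on CPM (limit 0.71), 12 of 24 sets of 5 libraries had 1 library far from the other 4. The sets were 4 rows in 6 groups. The limit's nominal rate of 1 in 20 assumes normal values and independent sets. CPM were skewed here and the rows correlated, so the 12 are a description with no comparison to chance. For miR-126b-3p these were replicate 7 of the 32 °C controls at 26451 CPM and replicate 5 of the 32 °C LPS fish at 31500.4 CPM. For miR-126a-3p the same 2 libraries stood out at 4138 and 2859 CPM, as did replicate 5 of the 28 °C controls at 1665 CPM and replicate 8 of the 28 °C LPS fish at 336 CPM. For miR-126a-5p the libraries were replicate 5 of the 24 °C controls at 76.1 CPM, replicate 7 of the 28 °C controls at 73.2 CPM and replicate 8 of the 28 °C LPS fish at 12.1 CPM. For miR-126b-5p they were the same 3 libraries, at 52.7, 95.9 and 11.6 CPM. In each of these 5p groups 4 of 5 libraries had 3 or fewer counts.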

How the results depend on the processing

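Of the 46 alternatives, 30 were fits that each left out 1 library, so they share most of their data. The higher miR-126b-3p at 32 than at 24 °C kept its direction in all 46 and its call in 44 (range 1.32 to 2.80, adjusted p from 0.000330 to 0.164). The 46 include the fits with paralogues merged (2.06) and with all miR-126 rows merged (2.39). Their values belong to the summed 3p arm and do not test miR-126b-3p alone. It fell below the threshold with log2 total count as a covariate (1.44) and without the 4 deepest libraries (1.32). Its joint temperature test had an adjusted p of 0.212 with that covariate, 0.118 without the 4 deepest libraries and 0.0693 without both highest libraries, the last an alternative chosen after seeing the data, as were library totals of all rows. The difference within controls kept its call in 21 of 46 alternatives. The labels do not say whether replicate numbers pair samples. The replicate block, a model term for these numbers, gave 2.19 (edgeR adjusted p = 0.0142) for miR-126b-3p at 32 against 24 °C. It moved the rows called there from 60 to 32. Of the same 364 tested rows, 60 were called with edgeR, 74 with DESeq2 and 103 with voom. With the covariate 1 of these rows was called. Without both highest libraries the filter was run again and kept 364 rows, not necessarily the same ones, of which 33 were called. More rows were tested with no low-count filter (40 called) and without the 4 deepest libraries (16 called). Fewer were tested with a stricter filter (27 called), with zebrafish rows alone (27 called) and after thinning (31 called). Counts called from different numbers of tested rows cannot be compared directly.

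For miR-126a-3p, 32 minus 24 °C was 3.28 with voom, past the threshold. It was -0.20 with the covariate, 0.63 without the 4 deepest libraries and 0.85 after thinning, none past it. Merging sums the paralogues into 1 row per arm. A merged 3p value therefore mostly follows miR-126b-3p, with 321314 counts beside 39248 of miR-126a-3p. The merged 3p arm gave 2.06 with paralogues merged and 2.39 with all miR-126 rows merged, both past the threshold. For 28 minus 24 °C the merged 3p rows gave 0.74 and 0.78, beside 0.90 for miR-126b-3p and -0.63 for miR-126a-3p alone. The miR-126a-3p value ran from -2.30 to 0.22 when each library was left out. The mean LPS difference of miR-126b-3p, near 0, turned to -0.32 with voom, -0.0695 without a filter, -0.0164 with the covariate, -0.0694 without the 4 deepest libraries, -0.13 and -0.31 in the merged rows and -0.15 without both highest, and ran from -0.17 to 0.36 with 1 library left out. At 28 °C that range was -0.53 to 0.17. With paralogues merged, the 3p arm gave -0.30 for LPS minus control at 28 °C and 1.32 for 32 minus 28 °C. For 32 minus 24 °C miR-126a-5p turned to -0.32 with the replicate block, -1.31 with the covariate and -0.39 without the 4 deepest libraries, and miR-126b-5p to -0.52, -1.08 and -0.17. Their mean LPS differences were 2.00 and 1.83 with the replicate block, and ran from -1.33 to 1.93 and from -1.92 to 1.82 with 1 library left out. As differences of medians, 32 minus 24 °C was -0.96 for the summed arm ratio and -0.45 for the 3p ratio of a to b. The merged values are those of summed rows, and the cause of the other changes was not tested. A count of 0 allows up to 3 counts.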

Other observations

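The pattern of libraries with more than 3 counts, which both 5p rows shared in 30 of 30 libraries, was compared with that of 358 other tested rows after it had been seen, as a description with no test. No row agreed in 28 or more libraries, 10 agreed in at least 25, and the median row agreed in 18. Rows at 26 were ccr-miR-18c, chr3_34157, dre-miR-100-2-3p and oni-miR-200a.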
